A study of Mus musculus with 6 samples.

Results

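Klf2, Foxo1, Ccr7, S1pr1, Tcf7, Lef1, Satb1, Pik3ip1 and Btg1 are genes that resting T cells use to stay quiescent and to circulate through lymph nodes. They were taken as a named list of 9 genes, and 8 of the 9 were measured among 19937 genes on the arrays. Tcf7 had no probe set with its symbol alone in the platform annotation, so its level was not analysed here. Only its promoter entries are counted below. Mouse CD4+ T cells of the B6 strain had been purified as naive cells from spleen, activated with antibodies to CD3 and CD28 for 2 days and rested overnight. All 6 cultures therefore carried that earlier activation. They were incubated for 20 min with anti-CD3 alone (4 arrays) or with anti-CD3 and anti-ICOS (2 arrays), antibodies to the T cell receptor complex and to the costimulatory receptor ICOS, and goat anti-hamster antibody then cross-linked these for 8 h. No array of unstimulated cells or of anti-ICOS alone was among the samples used here.

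FOXO1 is a transcription factor that is active in the nucleus of resting T cells. Signalling through PI3K and AKT, which CD28 and ICOS both engage, phosphorylates FOXO1 and keeps it out of the nucleus. Nuclear FOXO1 promotes transcription of Klf2, Ccr7 and Il7r, and KLF2 in turn promotes S1pr1, the receptor that lets T cells leave lymphoid tissue. The protein's location is not read by an RNA array.

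Levels are given as log2(intensity + 16) of a gene's brightest probe set, so a difference of 1 is a doubling for a bright gene. Each difference is the anti-ICOS group minus the group with anti-CD3 alone and comes from limma, fitted over all genes, with Benjamini-Hochberg adjusted p-values and 0.05 as the threshold. The sample titles describe biological replicates, and the labels name no batch. Median intensities over all probe sets lay between 109 and 114 on the 6 arrays. Anti-CD3 replicate 4 lay outside the range of anti-CD3 replicates 1 to 3 in 76.9% of all genes and in 7 of the 8 described here. Each printed difference of a gene is therefore also given without it and with it as the only reference. Markers of cell types are the exception, with the difference over all 6 arrays only. Over all genes replicate 4 correlated at 0.996 with each anti-ICOS array and at 0.982 to 0.987 with anti-CD3 replicates 1 to 3. Those replicates correlated at 0.995 to 0.998 with each other and at 0.981 to 0.987 with the anti-ICOS arrays. Replicate 4 was thus closer to the anti-ICOS arrays than to its own group, and the cause was not tested. Leaving out replicate 4 was a choice made because it stood apart, and this narrows the spread of the anti-CD3 group. The number of arrays limits the precision. With replicate 4 as the only reference, that 1 array has no spread of its own. The SE and p-values there come from the spread within replicates 1 to 3 and within the anti-ICOS arrays.

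T cell markers were bright on every array, with Cd3d, Cd3e, Cd3g, Cd4, Thy1, Cd5, Cd2 and Cd28 between 11.07 and 12.81, against array medians of 7.20 to 7.25. Markers of other cells were present too. The 5 measured B cell genes (Cd79a, Cd79b, Ms4a1, Pax5 and Cd22) read between 9.73 and 12.70 and Cd8a and Cd8b1 between 9.98 and 11.76, which goes against RNA from CD4+ T cells alone. The summed intensity of the 8 T cell genes was 31639 to 33590 in anti-CD3 replicates 1 to 3, 29753 in replicate 4 and 27780 to 29158 with anti-ICOS. For the B cell genes it was 16313 to 18153, 19391 and 17789 to 19590 in the same order, and for the 2 CD8 genes 3859 to 4128, 4704 and 4352 to 4509. For 6 NK cell genes it was 2390 to 2592, 3206 and 3084 to 3130, and for 6 monocyte and macrophage genes 636 to 649, 1082 and 1099 to 1734. Such a sum follows its brightest genes, and genes of a list can differ unequally. Of the T cell genes, Cd4, Cd28 and Cd3e differed by -0.33, -0.28 and -0.27 with all 6 arrays, and Thy1 and Cd5 by -0.14 and -0.11. Cd3d, Cd3g and Cd2 differed by only -0.033, -0.010 and 0.054. Of the B cell genes, Pax5, Ms4a1 and Cd79b differed by 0.24, 0.19 and 0.16, and Cd79a and Cd22 by -0.087 and -0.037. In the NK cell list the brightest were Klrd1, at 10.97 to 11.31, and Eomes, at 8.12 to 9.17, which differed by 0.12 and 0.59. Ncr1, Klrb1c, Klra8 and Gzma read only 5.22 to 6.57, below the array medians. At those low levels Ncr1, Gzma and Klrb1c differed by 0.75, 0.43 and 0.32, and Klra8 by 0.044. Of the monocyte and macrophage genes, Lyz2 and Adgre1 differed by 1.89 and 1.34, Csf1r, Cd68 and Cd14 by 0.47, 0.31 and 0.25, and Fcgr1 by -0.10. For 8 dendritic cell genes the summed intensity was 686 to 741, 792 and 1102 to 1107, for 6 neutrophil genes 404 to 466, 372 and 501 to 1161, and for 6 mast cell and basophil genes 306 to 320, 309 and 464 to 635. Of the dendritic cell genes, Flt3 differed by 1.26 and passed the threshold (limma adjusted p = 0.00321). Itgax, Siglech, Zbtb46 and Batf3 differed by 0.87, 0.53, 0.34 and 0.18, Clec9a and Cd209a by 0.078 and 0.062, and Xcr1 by -0.19. The highest neutrophil sum rested on Mpo (9.12) and Elane (8.60) in anti-ICOS replicate 2, against 7.27 and 7.17 in replicate 1. S100a8 differed by 0.45, S100a9 by 0.0029, Ly6g by -0.12 and Camp by -0.20. Of the mast cell and basophil genes, Kit, Cpa3, Mcpt8 and Gata2 differed by 0.90, 1.00, 0.84 and 0.36. Fcer1a and Ms4a2 stayed between 5.13 and 5.33 on every array, below the array medians. No defining marker read 0, since array intensities include background. B cells and other leukocytes also express several of the genes described here. In bulk RNA, fewer cells of a type and less RNA per cell cannot be told apart, and the part of cell mixture in the differences was not tested.

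None of the 8 genes passed the test when all 6 arrays were weighted alike, where 0.271% of all genes passed. Klf2 was the clearest, lower with anti-ICOS by 0.22 on the log2 scale, while Btg1 was higher by 0.28, with larger spread. The median difference of the 8 genes was 0.0061, beside -0.031 over all genes, with 4 differences above 0 and 4 below. The 8 genes were brighter than the array medians. With the dimmest 40% of genes left out, the median difference over the remaining genes was 0.043. Without anti-CD3 replicate 4, 4 of the 8 passed: Klf2 and Ccr7 fell, and Pik3ip1 and Btg1 rose. In that comparison 29.7% of all genes passed, 17.1% higher and 12.7% lower. With replicate 4 as the only reference none of the 8 passed, and 0.176% of all genes did.

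**Figure D1:**
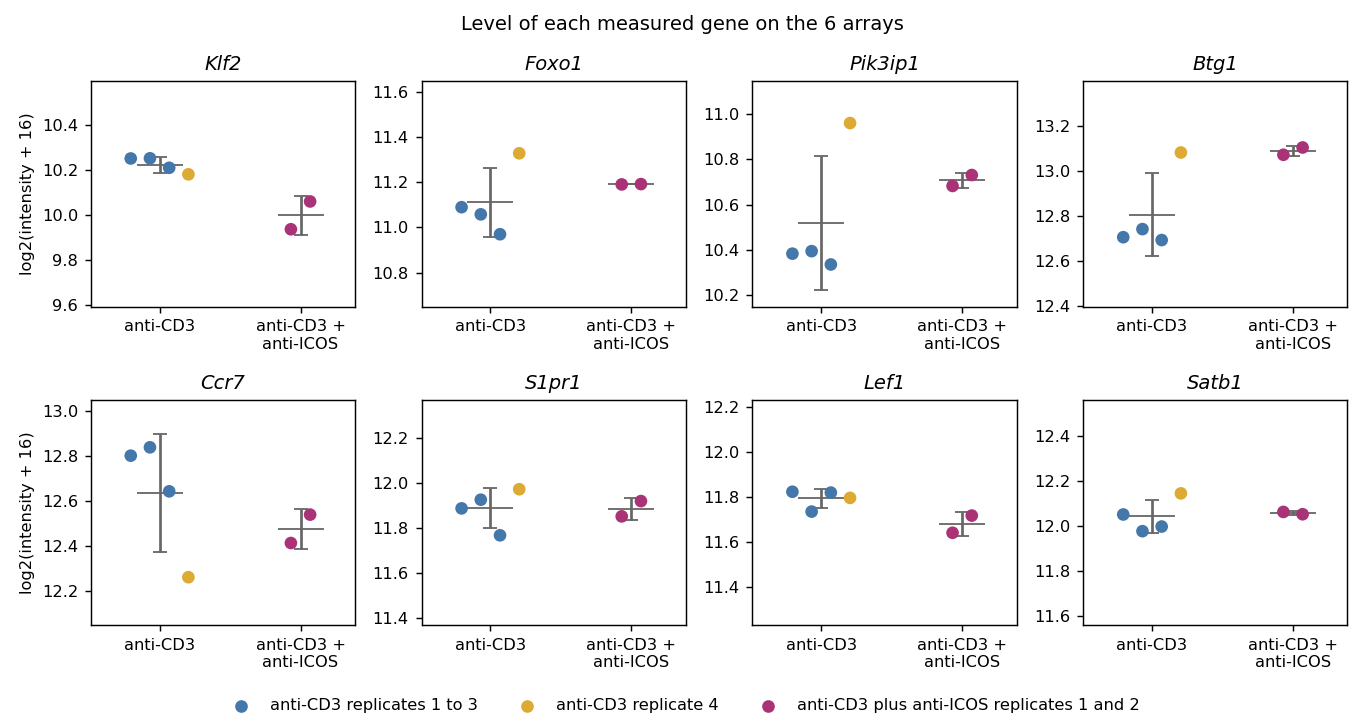
Each panel plots 1 gene as log2(intensity + 16) on the 6 arrays (vertical axes all span 1 log2 unit), with the mean and SD of each group as a grey bar. The anti-ICOS arrays lie below all anti-CD3 arrays for Klf2 and Lef1. Anti-CD3 replicate 4 lies on the far side of the anti-ICOS arrays from replicates 1 to 3 for Foxo1, Pik3ip1 and Ccr7. The same holds for Satb1, where an anti-ICOS array is barely above replicate 1.

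The 250 bases before an annotated transcription start are shown for Klf2, Pik3ip1 and Btg1, since these 3 passed the test without anti-CD3 replicate 4 and have an entry in the RefSeq promoter table (build GRCm38.p6), while Ccr7 and S1pr1 have none there. Capitals mark the letters GTAAACA, a core that FOXO factors bind, and CACCC, a core that KLF factors bind, each searched on both strands (TGTTTAC and GGGTG on the other). The stretches lie on the plus strand at chr8:72318812-72319061 for Klf2, chr11:3330481-3330730 for Pik3ip1 and chr10:96616751-96617000 for Btg1.
Klf2: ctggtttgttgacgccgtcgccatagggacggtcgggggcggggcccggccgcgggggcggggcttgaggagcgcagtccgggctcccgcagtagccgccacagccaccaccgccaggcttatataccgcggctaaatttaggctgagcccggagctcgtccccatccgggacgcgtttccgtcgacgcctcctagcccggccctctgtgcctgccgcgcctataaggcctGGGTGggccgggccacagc
Pik3ip1: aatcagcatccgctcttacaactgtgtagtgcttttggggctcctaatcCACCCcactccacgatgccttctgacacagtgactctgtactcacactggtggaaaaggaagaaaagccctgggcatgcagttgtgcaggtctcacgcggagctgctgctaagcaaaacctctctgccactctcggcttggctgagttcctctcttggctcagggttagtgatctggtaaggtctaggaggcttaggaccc
Btg1: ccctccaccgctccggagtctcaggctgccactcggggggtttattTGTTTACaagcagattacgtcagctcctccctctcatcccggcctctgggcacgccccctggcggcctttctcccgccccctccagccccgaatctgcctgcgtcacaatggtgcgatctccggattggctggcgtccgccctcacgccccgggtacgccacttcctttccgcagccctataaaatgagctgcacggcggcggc
Btg1 held the FOXO letters once, on the minus strand, 204 to 198 bases before the start. It was the only one of the 7 listed genes with promoter entries to hold them, in 1 of their 15 entries, where 3.17% of all 32851 promoter entries did. The KLF letters stood 19 to 15 bases before the Klf2 start on the minus strand and 201 to 197 bases before the Pik3ip1 start on the plus strand. They occurred in 5 of the 7 genes with entries, Klf2, Lef1, Pik3ip1, Satb1 and Tcf7, or 12 of the 15 entries of these 7, where 52.0% of all entries held them. Some of these entries overlap, as starts of the same gene lie close together. A gene with several entries has more chances to hold the letters, and the share per gene over all genes was not computed. The 2 motifs do not overlap each other in these stretches. GC content was 71.2% for Klf2, 53.6% for Pik3ip1 and 65.2% for Btg1, with a median of 52.4% over all entries. A match of letters is a description of the sequence and no evidence of binding.

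Klf2 encodes the zinc finger factor that maintains quiescence and S1pr1 transcription in T cells. It read 10.25, 10.25, 10.21 and 10.18 in anti-CD3 replicates 1 to 4, and 9.94 and 10.06 with anti-ICOS. Both anti-ICOS arrays lay below all 4 anti-CD3 arrays, and replicate 4 stayed next to the other anti-CD3 arrays. The difference was -0.22 ± 0.071 (SE; 95% interval -0.39 to -0.056; limma adjusted p = 0.414), a 1.17-fold lower level, and the exact permutation test over the arrays gave two-sided p = 0.133, the smallest these group sizes allow. Without replicate 4 Klf2 fell by 0.24 on the log2 scale, with an SE of 0.067 (limma adjusted p = 0.0321). Against replicate 4 alone the difference was -0.18 ± 0.090 (SE; limma adjusted p = 1.0). The direction was therefore the same for each choice of reference, and the size moved little. Klf2 ranked at the 9.75th percentile of all genes ordered by their difference.

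Foxo1 encodes the factor upstream of Klf2. Its transcript read 11.09, 11.06, 10.97 and 11.33 in anti-CD3 replicates 1 to 4, and 11.19 and 11.19 with anti-ICOS. Both anti-ICOS arrays lay above replicates 1 to 3 and below replicate 4, which was the highest of the 6 arrays. The difference was 0.080 ± 0.11 (SE; 95% interval -0.17 to 0.33; limma adjusted p = 0.677). Without replicate 4 it was 0.15 ± 0.066 (limma adjusted p = 0.115), and against replicate 4 alone -0.14 ± 0.089 (limma adjusted p = 1.0), so the sign depended on that array.

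Pik3ip1 encodes a transmembrane inhibitor of PI3K that T cells lose on activation. It read 10.38, 10.39, 10.33 and 10.96 in anti-CD3 replicates 1 to 4, and 10.68 and 10.73 with anti-ICOS. Replicate 4 was the highest array, 0.59 above the mean of replicates 1 to 3, and the anti-ICOS arrays lay between. With all arrays the difference was 0.19 ± 0.18 (SE; 95% interval -0.23 to 0.61; limma adjusted p = 0.565). Without replicate 4 Pik3ip1 rose by 0.34 ± 0.062 (limma adjusted p = 0.00685), a 1.26-fold change. Against replicate 4 alone the sign turned, to -0.25 ± 0.083 (limma adjusted p = 0.716). Pik3ip1 thus differed by more between anti-CD3 cultures than between the treatments.

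Btg1 encodes an antiproliferative protein that promotes mRNA deadenylation and is abundant in resting T cells. Its intensity was 6665, 6833, 6606 and 8651 in anti-CD3 replicates 1 to 4, and 8591 and 8786 with anti-ICOS. Replicate 4 and both anti-ICOS arrays formed a high level, and replicates 1 to 3 a lower one. On the log2 scale the means were 12.81 ± 0.19 (SD, n = 4) with anti-CD3 and 13.09 ± 0.023 (SD, n = 2) with anti-ICOS, a difference of 0.28 ± 0.12 (SE; 95% interval -0.0053 to 0.57; limma adjusted p = 0.421). Without replicate 4 Btg1 rose by 0.37 ± 0.061 (limma adjusted p = 0.00413), or 1.30-fold, and against replicate 4 alone the difference was 0.0061 ± 0.082 (limma adjusted p = 1.0). Of the 8 genes Btg1 had the largest difference with all arrays, and the smallest against replicate 4.

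**Figure D2:**
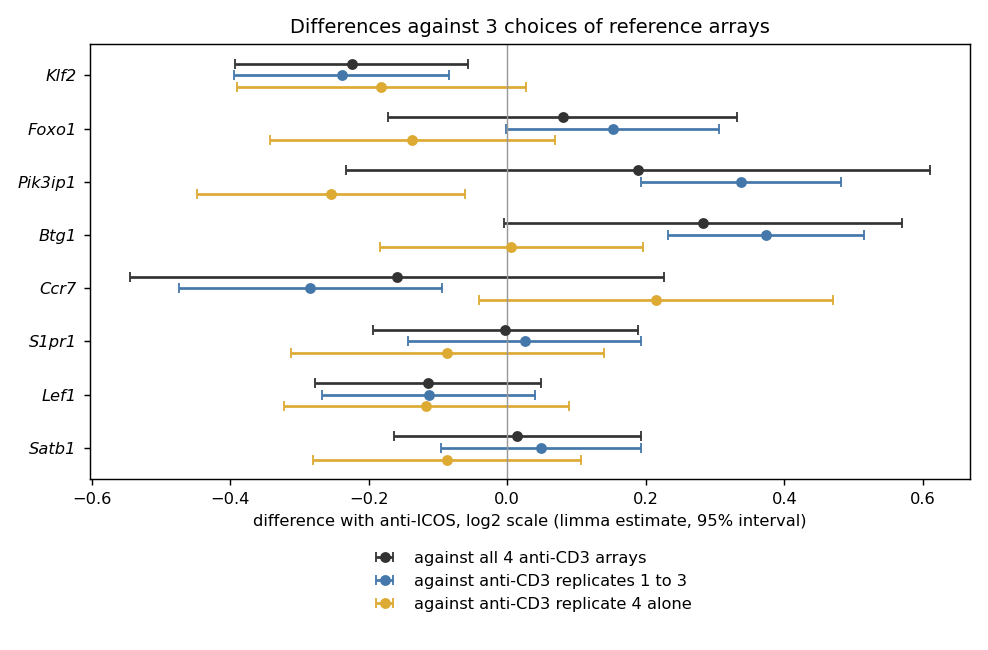
Points give the limma difference with anti-ICOS on the log2 scale and bars its 95% interval, for each of the 8 genes against 3 choices of anti-CD3 arrays. Klf2 and Lef1 keep a similar value with each choice, whereas Pik3ip1 goes from 0.34 to -0.25 and Ccr7 from -0.28 to 0.21.

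Of the homing receptors, Ccr7, the chemokine receptor that draws T cells into lymph nodes, read 12.80, 12.84, 12.64 and 12.26 in anti-CD3 replicates 1 to 4, and 12.41 and 12.54 with anti-ICOS. Replicate 4 was the lowest array and replicates 1 to 3 the highest. The difference was -0.16 ± 0.16 (SE; 95% interval -0.55 to 0.23; limma adjusted p = 0.593). Without replicate 4 Ccr7 fell by 0.28 on the log2 scale, with an SE of 0.082 (limma adjusted p = 0.0353), and against replicate 4 alone it was 0.21 ± 0.11 (limma adjusted p = 1.0).

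S1pr1, the sphingosine-1-phosphate receptor that KLF2 promotes, read 11.89, 11.93, 11.77 and 11.97 in anti-CD3 replicates 1 to 4, and 11.85 and 11.92 with anti-ICOS. The anti-ICOS arrays lay inside the anti-CD3 range. The difference was -0.0025 ± 0.081 (SE; limma adjusted p = 0.988), with a 95% interval of -0.19 to 0.19. Without replicate 4 it was 0.025 ± 0.072 and against replicate 4 alone -0.086 ± 0.097, neither past the threshold (limma adjusted p = 0.806 and 1.0).

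Lef1 and Satb1 encode nuclear factors of naive T cells, an HMG-box partner of beta-catenin and a chromatin organiser. Lef1 read 11.82, 11.74, 11.82 and 11.80 in anti-CD3 replicates 1 to 4, and 11.64 and 11.72 with anti-ICOS. Both anti-ICOS arrays lay below all 4 anti-CD3 arrays, though the higher of them lay close to anti-CD3 replicate 2. The difference of Lef1 was -0.11 ± 0.069 (SE; 95% interval -0.28 to 0.049; limma adjusted p = 0.443). It was also -0.11 without replicate 4 (limma adjusted p = 0.218) and -0.12 against it alone (limma adjusted p = 1.0). Satb1 read 12.05, 11.98, 11.998 and 12.15 in anti-CD3 replicates 1 to 4, and 12.06 and 12.05 with anti-ICOS. Its anti-ICOS arrays fell inside the anti-CD3 range, with a difference of 0.015 ± 0.076 (SE; 95% interval -0.16 to 0.19; limma adjusted p = 0.921). Without replicate 4 the difference of Satb1 was 0.049 and against replicate 4 alone -0.087, neither past the threshold (limma adjusted p = 0.566 and 1.0).

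Klf2 and Lef1 were thus the 2 of 8 genes with both anti-ICOS arrays below all 4 anti-CD3 arrays, an order found in 14.7% of all genes. None of the 8 had both above, against 8.51% of all genes. Set against anti-CD3 replicates 1 to 3 alone, both anti-ICOS arrays were above in 4 of the 8 (Foxo1, Satb1, Pik3ip1 and Btg1) and below in 3 (Klf2, Ccr7 and Lef1), against 28.5% and 35.1% of all genes. Satb1 counts here by a very small margin, 12.0528 in anti-ICOS replicate 2 against 12.0517 in anti-CD3 replicate 1. Replicate 4 lay above replicates 1 to 3 in 5 of the 8 genes (Foxo1, Satb1, Pik3ip1, Btg1 and S1pr1) and below in 2 (Klf2 and Ccr7), where 34.5% of all genes lay above and 42.5% below. In Klf2 its distance from the mean of replicates 1 to 3 was -0.057, and in Lef1 0.0033. In Ccr7 it was -0.50, in Foxo1 0.29 and in Btg1 0.37. By Dixon's test replicate 4 lay apart from its group in 2 of the 8, Pik3ip1 and Btg1, where 8.69% of all genes had 1 anti-CD3 array apart.

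Among 10712 genes with a mean of at least 7 that were on no list, Tmem71 had the pattern most like that of Klf2, with a root mean square distance of 0.0094 between their centred log2 values over the 6 arrays. Tmem71 read 11.45, 11.47, 11.43 and 11.38 with anti-CD3 and 11.16 and 11.27 with anti-ICOS. Kank3 and Emid1 followed, at distances of 0.020 and 0.027. The genes most like Ccr7 were Siva1, Ndufb11 and Cnih4, at 0.028, 0.028 and 0.035. In Siva1 too, replicate 4 was the lowest array, at 7.50 against 7.89 to 8.10 in replicates 1 to 3, while the anti-ICOS arrays read 7.70 and 7.74.

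The other genes of this network were described from 4 lists of FOXO1-linked genes, KLF family and homing genes, quiescence and naive T cell genes, and the kinases and phosphatases that act on FOXO1. Bach2, Id3, Klf3 and Rictor are shared between lists, so the counts of the lists overlap. With equal weight on every array, none of the measured genes on the lists passed.

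Of 21 FOXO1-linked genes measured, 0 were higher and 0 lower, with a median difference of -0.0058. Without replicate 4, Gadd45a and Rictor rose and Ccng2 and Il7r fell, so 2 of the 21 were higher and 2 lower, each a smaller share than over all genes. Il7r, the receptor for the survival cytokine IL-7, read 12.05, 12.12, 11.97 and 11.84 with anti-CD3 and 11.76 and 11.87 with anti-ICOS. Its difference was -0.18 ± 0.095 (SE; limma adjusted p = 0.426), and without replicate 4 it fell by 0.23 (limma adjusted p = 0.0455), while against replicate 4 alone the difference was -0.027. Ccng2, an atypical cyclin of non-dividing cells, differed by -0.40 ± 0.18 with all arrays, by -0.54 without replicate 4 and by 0.022 against it alone. Sesn1, a stress-induced inhibitor of mTORC1 signalling, differed by -0.13 ± 0.069 (limma adjusted p = 0.430), by -0.13 without replicate 4 and by -0.12 against it alone. In Ccng2 replicate 4 sat with the anti-ICOS arrays, and in Sesn1 it sat with replicates 1 to 3.

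Of 21 KLF family and homing genes measured, 0 were higher and 0 lower, with a median difference of 0.19 and 16 of 21 above 0, against 8442 of 19937 over all genes. That base includes many dim genes, and its median difference was 0.043 with the dimmest 40% left out. Without replicate 4, 12 of the 21 rose and none fell, where 17.1% of all genes rose and 12.7% fell, and the list median was 0.30. The 12 were Arhgap26, Cd69, Cxcr3, Cxcr5, Gpr183, Itga4, Itgal, Klf6, Klf9, Klf13, P2rx7 and S1pr3. Against replicate 4 alone none passed and the median was -0.037. The mean level of the list was 9.38 to 9.46 in replicates 1 to 3, 9.69 in replicate 4 and 9.68 to 9.70 with anti-ICOS, so replicate 4 was at the level of the anti-ICOS arrays.

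Cd69, whose protein binds S1PR1 and removes it from the cell surface, read 9.34, 9.40, 9.15 and 9.99 with anti-CD3 and 10.11 and 9.79 with anti-ICOS. Its difference was 0.48 ± 0.23 (SE; limma adjusted p = 0.423), and 0.66 without replicate 4 (limma adjusted p = 0.00524), but -0.036 against replicate 4 alone. Klf6, a member of the KLF family induced by many stimuli, read 9.98, 10.02, 9.75 and 10.11 with anti-CD3 and 10.48 and 10.33 with anti-ICOS, above all 4. Its difference was 0.45 ± 0.11 (SE; limma adjusted p = 0.337), opposite in sign to that of Klf2. Without replicate 4 it rose by 0.49 (limma adjusted p = 0.00869), and against replicate 4 alone it was 0.30 (limma adjusted p = 0.966). Gpr183, an oxysterol receptor that positions lymphocytes, differed by 0.30 ± 0.079 and its anti-ICOS arrays were likewise the highest of the 6. P2rx7, an ATP-gated channel, differed by 0.66 ± 0.21, with replicate 4 at 8.44 beside anti-ICOS arrays at 8.96 and 8.42. The adjusted p was 0.367 for Gpr183 and 0.414 for P2rx7 in limma. Without replicate 4 these 2 genes rose by 0.33 and 0.79, and against it alone they differed by 0.21 and 0.25.

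**Figure D3:**
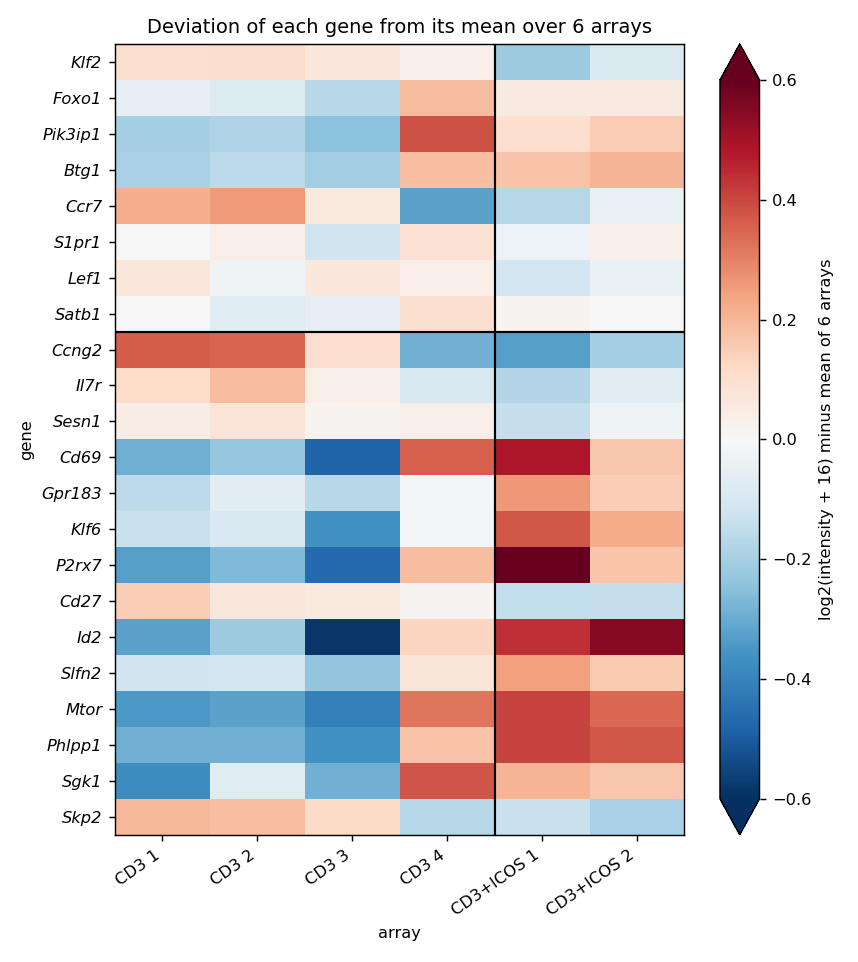
Colour gives the deviation of each gene (rows; the 8 listed genes above the line, named pathway genes below) from its own mean over the 6 arrays (columns) on the log2 scale. The column of anti-CD3 replicate 4 has the sign of the anti-ICOS columns in Pik3ip1, Btg1, Ccr7, Cd69 and Mtor, and the sign of replicates 1 to 3 in Klf2, Sesn1 and Cd27.

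Of 27 quiescence and naive T cell genes measured, 0 were higher and 0 lower, with a median difference of 0.045. Without replicate 4, 8 of the 27 rose and 3 fell, beside 17.1% and 12.7% of all genes. Id2, a helix-loop-helix inhibitor that favours effector cells, read 10.46, 10.57, 10.20 and 10.91 with anti-CD3 and 11.22 and 11.33 with anti-ICOS. It differed by 0.74 ± 0.18 (SE; limma adjusted p = 0.315), by 0.87 without replicate 4 (limma adjusted p = 0.00136) and by 0.37 against it alone. Slfn2, a Schlafen gene needed for T cell quiescence, differed by 0.30 ± 0.098 (limma adjusted p = 0.414), with both anti-ICOS arrays highest, by 0.36 without replicate 4 and by 0.13 against it alone. Cd27, a costimulatory receptor of naive and memory T cells, differed by -0.22 ± 0.070 (limma adjusted p = 0.414) and fell by 0.24 without replicate 4 (limma adjusted p = 0.0286), with a difference of -0.16 against it alone. Genes of this list therefore lay on both sides. Bcl11b, Ctsl, Foxp4, Il6st, Tox and Tsc1 also rose, and Dapl1 and Ikzf3 also fell, without replicate 4.

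Of 14 measured genes for kinases, phosphatases and other regulators that act on FOXO1 or its kinases, 0 were higher and 0 lower, with a median difference of 0.14. Without replicate 4, Mapkap1, Mtor, Phlpp1, Rictor and Sgk1 rose and Skp2, which marks FOXO1 for degradation, fell. These were 5 and 1 of the 14, beside 17.1% and 12.7% of all genes, and Rictor was also counted among the FOXO1-linked genes. Mapkap1, Rictor and Mtor encode subunits of mTORC2, the complex that activates AKT and SGK1. Phlpp1, a phosphatase that opposes AKT, differed by 0.58 ± 0.15 (SE; limma adjusted p = 0.363), by 0.70 without replicate 4 (limma adjusted p = 0.000337) and by 0.22 against it alone. Mtor read 8.65, 8.67, 8.58 and 9.32 with anti-CD3 and 9.40 and 9.34 with anti-ICOS, a difference of 0.56 ± 0.20 (SE; limma adjusted p = 0.416). For Mtor it was 0.73 without replicate 4 and 0.052 against it alone. Sgk1, a kinase that phosphorylates FOXO1, was highest in replicate 4 at 8.11, against 7.35 to 7.65 in replicates 1 to 3, while the anti-ICOS arrays read 7.93 and 7.89. The difference of Sgk1 was 0.27 ± 0.20 (SE; limma adjusted p = 0.489), 0.43 without replicate 4 and -0.20 against it alone. Skp2 differed by -0.24 ± 0.12 (limma adjusted p = 0.423), by -0.33 without replicate 4 and by 0.0075 against it alone. Against replicate 4 alone none of the 14 passed, and the list median was 0.0077.

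**Figure D4:**
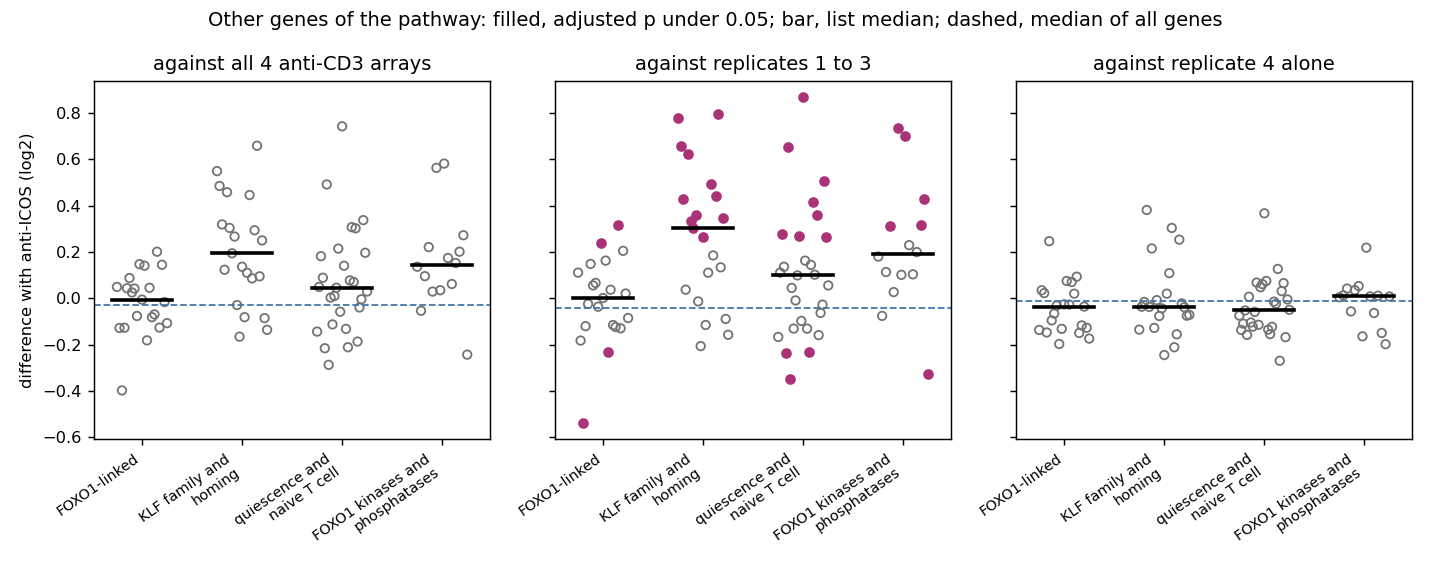
Each point is 1 gene of the 4 lists, with its limma difference on the log2 scale against all 4 anti-CD3 arrays, replicates 1 to 3 or replicate 4 alone; filled points passed the test, bars are list medians and the dashed line is the median of all genes. The median of the KLF family and homing list is 0.19, 0.30 and -0.037 in the 3 panels. The dashed line takes in dim genes too.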

How the data were processed

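RNA of 6 cultures was hybridised to Mouse Gene 1.0 ST arrays (Affymetrix), from 1 ug of biotin-labelled material per array, per the labels' protocols. The authors deposited 1 normalized intensity per probe set and array, on a linear scale, from 7.23 to 22176. Per the submitters' processing notes MAS5 was used; how background, probe summary and centring were handled is not given in the sources used here. A shift shared by most genes could therefore have been removed before deposit.

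Of 34760 probe sets, 21640 carried 1 gene symbol, 1321 several and 11799 none. The brightest probe set stood for a gene, which gave 19937 genes, analysed as log2(intensity + 16) without a filter. Groups came from the sample titles. limma 3.58.1 in R 4.3.3 (lmFit, eBayes, 4 residual degrees of freedom) was fitted over all genes and tested on simulated data. A difference is called where the two-sided Benjamini-Hochberg adjusted p is under 0.05. Single genes also had an exact permutation test over the 15 splits of the arrays, which cannot go below 0.133. Named genes are all listed genes, the 3 of smallest p from each pathway list, and Il7r, Cd69 and Sgk1. Genes that passed without anti-CD3 replicate 4 and the marker genes were added to the text after their values were seen. The members and lists were chosen with earlier results of these data known. Alternatives covered normalization, filtering, probe sets, offsets of 1 and 64, array weights, the prior, a replicate block, thresholds and each array left out. Plots used matplotlib 3.10.9.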

Additional observations from a re-analysis of the deposited data

Results flagged for a closer look

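Within the 4 anti-CD3 arrays, 1 array was called apart where the gap between it and its neighbour, divided by the range of the group, exceeded Dixon's 95% critical value. Chance flags about 1 in 20 groups, and 8.69% of all genes had such an array. Of the 22 genes checked 4 did, each with anti-CD3 replicate 4 above the others, and 2 of these 4 were among the 8 listed genes. Replicate 4 read 10.96 for Pik3ip1, with a gap of 0.906 of the range, and 13.08 for Btg1, with a gap of 0.875. It read 9.33 for Phlpp1 (0.855) and 9.32 for Mtor (0.878). In Btg1 and Mtor replicate 4 was level with the anti-ICOS arrays, in Phlpp1 it lay below them and in Pik3ip1 above them.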

How the results depend on the processing

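With all arrays weighted alike 54 genes passed and 0 of the 8 listed genes. The count over all genes was 9413 with array quality weights, 28 with an offset of 64, 35 against anti-CD3 replicate 4 alone and 85 at a threshold of 0.1. Leaving out 1 array gave 16 to 5930 genes, the highest without anti-CD3 replicate 4, and 0 to 4 listed genes. With array quality weights 4 listed genes passed, and with the replicate block 4 as well, in each case Klf2, Ccr7, Pik3ip1 and Btg1. The weights were 4.53, 1.07, 0.38 and 0.15 for anti-CD3 replicates 1 to 4. The replicate block gave 6551 genes over the whole table, but arrays of the 2 groups share only a number: deviations from the group mean correlated at -0.039 for number 1 and 0.10 for number 2, over genes. In that block anti-CD3 replicates 3 and 4 have no partner and do not enter the difference. The sign turned against replicate 4 alone for Foxo1 (-0.14), Ccr7 (0.21), Satb1 (-0.087) and Pik3ip1 (-0.25). S1pr1 turned with quantile normalization (0.023) and on leaving out 1 array, with values from -0.043 to 0.031, and Satb1 likewise, from -0.0072 to 0.049. The cause of these changes was not tested beyond which array was left out. Klf2, Lef1 and Btg1 kept their sign under all 17 alternatives, with ranges of -0.29 to -0.16, -0.15 to -0.076 and 0.0061 to 0.37.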
